A study of Mus musculus with 9 samples.

Results

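Cells that switched on Sox9 within 48 h of kidney injury were compared with uninjured proximal tubule cells across all genes, using 6 of the 9 RNA sequencing libraries of the study, 3 in each group. All mice were male, 9 to 12 weeks old and 25 to 30 g in weight. The uninjured group came from Slc34a1IRES-CreERT2/+:R26RtdT/+ mice. In these, tamoxifen activates a Cre recombinase made under the control of the phosphate transporter gene Slc34a1, which switches on the red fluorescent protein tdTomato in proximal tubule epithelium. The 48 h group came from Sox9IRES-CreERT2/+:R26RtdT/+ mice with bilateral renal ischemia-reperfusion injury (IRI), in which blood flow to both kidneys is stopped and then restored. These mice received tamoxifen at the time of injury, with collection 48 h afterwards. Cortex and outer medulla were dissociated, and red cells were sorted. The labels do not mention sham surgery. Another group, of the same Sox9 genotype, received tamoxifen on days 10 and 12 after IRI and was collected on day 14 (d14). It entered the fit, and its values are used below only where the difference between 48 h and d14 was tested directly, and for marker sums beside those tests. The libraries were chosen by group label alone. The groups at 48 h and uninjured differ in the Cre allele, the injury and the timing of tamoxifen at once, so the parts these play in a difference cannot be told apart. In addition, every kidney cell that expresses Sox9 can be labelled in the 48 h group, whichever tubule segment it belongs to, whereas labelling in the uninjured group is tied to Slc34a1.

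The proximal tubule reclaims most filtered glucose, phosphate, amino acids and protein, makes glucose, breaks down amino acids and secretes organic anions and cations, and it depends on oxidative metabolism in mitochondria and peroxisomes. Its segments S1, S2 and S3 follow each other from the glomerulus to the outer medulla, and S3 is the segment most exposed to ischemia. Surviving cells flatten, lose their brush border, express injury markers such as KIM-1 and NGAL, and many re-enter the cell cycle. Sox9, a transcription factor of the embryonic nephron that is nearly silent in adult proximal tubule, is switched on in such cells within the first days.

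Genes on both sides of the comparison carry short sequence motifs of factors known from this tissue close to their start sites, and 4 such promoters are shown because the genes behind them recur below. The sequences are RefSeq promoter windows on build GRCm38.p6, printed 5′ to 3′ on the strand of the gene from 250 to 11 bases before the annotated start. Capitals mark an AP-1 motif (TGANTCA) or an HNF4 motif (CAAAGTCCA), read on either strand. Sprr2f and Cldn4, which were higher at 48 h, hold AP-1 motifs, 1 in Sprr2f and 2 in Cldn4.
Sprr2f, chr3:92364937-92365176, plus strand: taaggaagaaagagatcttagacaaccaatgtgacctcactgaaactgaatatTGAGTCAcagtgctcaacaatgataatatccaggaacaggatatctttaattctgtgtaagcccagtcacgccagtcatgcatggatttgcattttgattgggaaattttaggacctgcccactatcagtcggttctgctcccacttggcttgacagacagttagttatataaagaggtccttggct
Cldn4, chr5:134946945-134947184, minus strand: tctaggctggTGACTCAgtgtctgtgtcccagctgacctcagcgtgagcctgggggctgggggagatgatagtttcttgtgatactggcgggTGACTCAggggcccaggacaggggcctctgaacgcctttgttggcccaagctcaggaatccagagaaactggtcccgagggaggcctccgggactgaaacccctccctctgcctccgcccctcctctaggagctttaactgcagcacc
Treh and Slc3a1 were lower at 48 h. Treh holds an HNF4 motif 71 bases before its start, and Slc3a1 both an AP-1 motif and an HNF4 motif.
Treh, chr9:44672983-44673222, plus strand: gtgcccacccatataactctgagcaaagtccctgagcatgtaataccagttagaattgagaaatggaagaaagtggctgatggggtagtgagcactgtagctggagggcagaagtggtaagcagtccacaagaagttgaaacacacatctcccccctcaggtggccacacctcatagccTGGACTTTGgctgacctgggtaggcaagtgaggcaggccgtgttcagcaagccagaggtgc
Slc3a1, chr17:85028097-85028336, plus strand: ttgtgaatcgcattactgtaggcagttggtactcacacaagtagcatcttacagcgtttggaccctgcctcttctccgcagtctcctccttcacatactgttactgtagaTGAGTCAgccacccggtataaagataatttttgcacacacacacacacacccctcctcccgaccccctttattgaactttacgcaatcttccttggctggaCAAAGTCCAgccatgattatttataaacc
Over the 14559 promoter windows of genes tested, each of 300 bases, the AP-1 motif stood in 5.45%, in 7.07% of those of genes called higher, in 10% of those of genes at least 8-fold higher, in 5.18% of those of genes called lower and in 8.93% of the 112 windows of genes at least 4-fold lower. Over every window of the table, expressed or not, it stood in 7.81%. The HNF4 motif stood in 0.446% of the windows of tested genes, in 0.947% of those called lower and in 0.37% of those called higher. An NF-kB motif (GGANTTTCC) stood in 1.35%, 0.612% and 2.29% in the same order, and the antioxidant response element (TGACNNNGC), which shared bases with an AP-1 match in 63 windows, in 14.1%, 15.3% and 14.6%. An E2F motif (TTTGGCGC) stood in 0.872%, 0.724% and 0.666%. A match describes the letters only and is no evidence that a factor binds there.

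Levels are in CPM, the count of a gene relative to the total of its library, scaled by TMM, a factor that evens out differences in RNA composition. They are given in the order of replicates 1, 2 and 3 and do not correct for gene length. Folds are log2 fold changes, 48 h over uninjured, with their standard errors. Uninjured libraries held 31585507 to 51631204 counts and 48 h libraries 8036054 to 23794029. Mitochondrially encoded genes took 25.1% to 29.2% of the counts in uninjured and 32.7% to 39.2% in 48 h libraries. Replicate 2 of the 48 h group had the fewest counts and stood apart from the other 48 h libraries on the second principal component, at -117 against -35.4 and -54.1, so the counts of called genes over the whole table are given with and without it, and those of a list where leaving it out moved them by over 1.5 times. The biological coefficient of variation, the spread between replicates beyond counting noise, was 0.223 in uninjured and 0.398 in 48 h libraries. The labels call the libraries of a group biological replicates and do not tie them to animals, so p-values measure the spread between these samples. In sorted bulk RNA, fewer cells of a kind and less RNA per cell cannot be told apart.

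Of 55385 genes listed, 15519 had enough counts to be tested. Of these, 2700 were higher at 48 h (17.4% called) and 1818 lower (11.7% called) at an adjusted p under 0.05 in edgeR's quasi-likelihood F-test. Without 48 h replicate 2 these counts were 2837 and 1737. The lower count fell to 1147 without uninjured replicate 1 and to 1208 without uninjured replicate 3. The 2 directions differed in size. Among genes higher, 2029 rose at least 2-fold and 912 at least 8-fold, whereas among genes lower 539 fell at least 2-fold and 70 at least 8-fold. The uninjured and 48 h values did not overlap for 2487 of the genes called higher and 1807 of those called lower, together 95% of called genes, against 6553 of the 15519 tested. A called gene without overlap is thus the usual case. No count was found in any uninjured library for 103 of the genes called higher, and none in any 48 h library for 12 of those called lower. Over all genes tested the log2 fold change had a median of 0.0197. The medians of gene lists below can be set beside this value, and their called shares beside 17.4% higher and 11.7% lower. The lists were chosen with earlier results of these data known, so such comparisons describe the lists and test nothing.

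**Figure D1:**
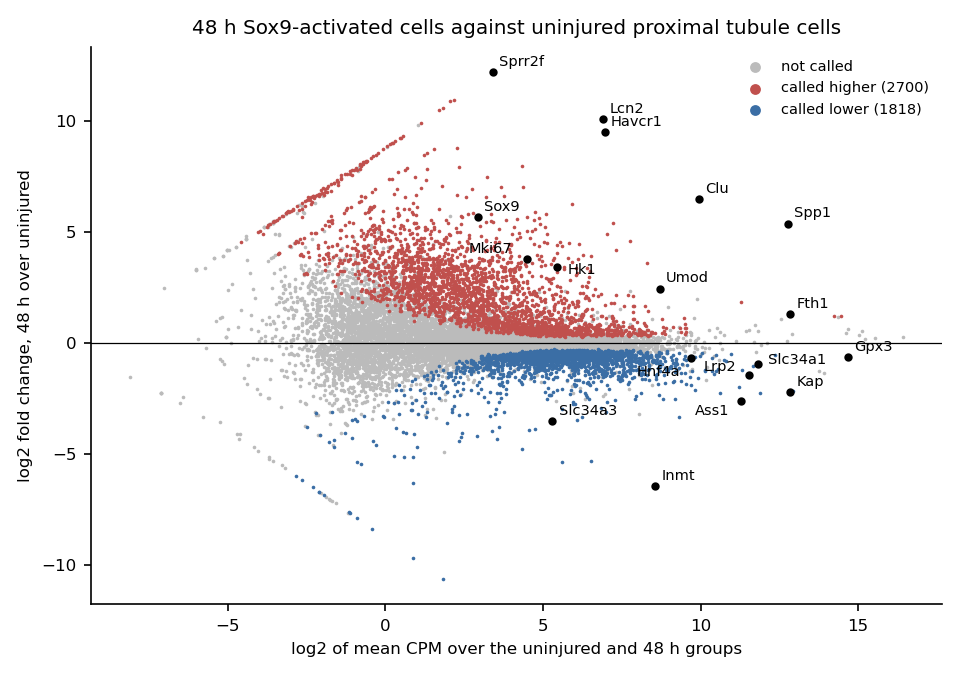
Each point is a tested gene, with the log2 of its mean CPM over the uninjured and 48 h groups on the horizontal axis and its log2 fold change (48 h over uninjured) on the vertical axis. The 2700 genes called higher (red) reach larger fold changes than the 1818 called lower (blue), and the straight diagonal edges are genes with no count in 1 of the groups, whose fitted fold changes depend on a prior count. Genes with no count in both groups are not drawn.

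The marker by which the 48 h cells were labelled was low in every uninjured library. Sox9 was at 0.152, 0.0351 and 0.635 CPM uninjured and 7.57, 15.1 and 22.1 CPM at 48 h (log2 fold change 5.69 ± 0.65, adjusted p = 2.88e-04), a check of the labels and not of injury. Slc34a1 was at 4796, 4626 and 4807 CPM uninjured and 4404, 1147 and 1895 CPM at 48 h. Replicate 1 at 48 h lay just under the uninjured range, the other replicates well below it, and the gene missed the threshold (log2 fold change -0.93 ± 0.42, adjusted p = 0.126). Without 48 h replicate 1 its log2 fold change was -1.64 (adjusted p = 0.0011). All 10 proximal tubule markers were detected in each 48 h library, and the list summed to 26215, 23894 and 25968 CPM in uninjured and 16603, 10624 and 11006 CPM in 48 h libraries, with 7 members lower and none higher. Proximal tubule RNA thus stayed abundant in each 48 h library. Some of the genes with the steepest changes lie, by the GENCODE M21 annotation of GRCm38, as follows, all protein-coding: Sprr2f (ENSMUSG00000050635.1) on chromosome 3 from 92365187 to 92366442, Inmt (ENSMUSG00000003477.5) on chromosome 6 from 55170626 to 55175043, Spp1 (ENSMUSG00000029304.14) on chromosome 5 from 104435118 to 104441050, Clu (ENSMUSG00000022037.15) on chromosome 14 from 65968483 to 65981547, Ass1 (ENSMUSG00000076441.9) on chromosome 2 from 31470207 to 31520672 and Hk1 (ENSMUSG00000037012.18) on chromosome 10 from 62268855 to 62379908.

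**Figure D2:**
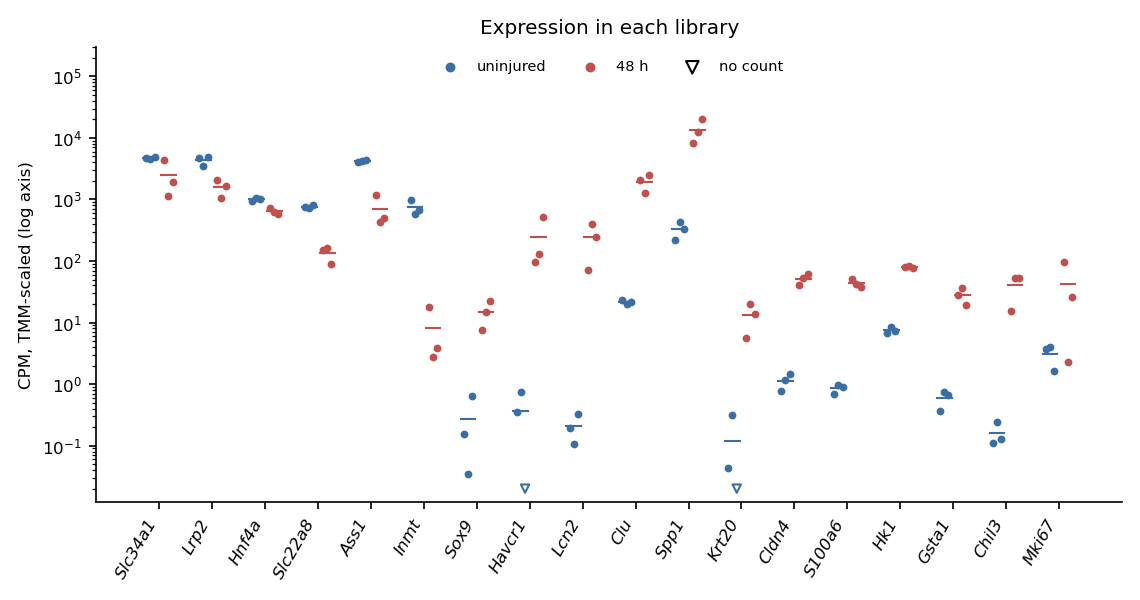
CPM of 18 genes in each uninjured (blue) and 48 h (red) library on a log axis, with points in the order of replicates 1 to 3, a bar at the mean of the group and open triangles for libraries with no count. Hk1, S100a6 and Clu are tight within each group, whereas Havcr1 and Mki67 spread widely among 48 h libraries, Mki67 being at 98.1, 2.30 and 25.9 CPM.

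Of the lists that mark the 3 proximal segments, most S1 and S3 genes and 4 of 8 S2 genes fell at 48 h, and none was called higher by edgeR. With DESeq2 the S3 gene Cyp7b1, named after its values were seen, was called higher (adjusted p = 0.0466). Of 10 transporters and enzymes of S1, 9 were lower (median log2 fold change -0.83). Slc6a19, the main carrier of neutral amino acids from urine, was at 624, 726 and 839 CPM uninjured and 213, 269 and 149.9 CPM at 48 h (log2 fold change -1.80 ± 0.21, adjusted p = 1.38e-04). Every 48 h value lay far below the lowest uninjured one, with replicate 3 lowest. Slc34a3, a phosphate carrier, went further, with 58.1, 64.8 and 94.2 CPM uninjured and 9.82, 4.60 and 4.15 CPM at 48 h (log2 fold change -3.52 ± 0.40, adjusted p = 2.45e-04). Slc5a2, the glucose carrier SGLT2, was at 757, 999 and 1142 CPM uninjured and 491, 343 and 294 CPM at 48 h (log2 fold change -1.36 ± 0.26, adjusted p = 0.00323). The sodium bicarbonate carrier Slc4a4 was the member that did not pass (log2 fold change -0.59 ± 0.22, adjusted p = 0.0659), and it was named after its values were seen. It passed when 48 h replicate 2 was omitted.

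Of 8 S2 genes 4 were lower (median -1.41). Slc22a8, the organic anion carrier OAT3, was at 765, 717 and 809 CPM uninjured and 149.9, 159.8 and 89.7 CPM at 48 h (log2 fold change -2.52 ± 0.23, adjusted p = 2.51e-05). Every 48 h value lay far below the lowest uninjured one. Cyp4b1, a monooxygenase, was at 4454, 3135 and 3861 CPM uninjured and 1785, 646 and 448 CPM at 48 h (log2 fold change -1.99 ± 0.44, adjusted p = 0.00924), with replicate 1 highest at 48 h.

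Of 15 S3 genes 10 were lower (median -1.82), and 6 when any of uninjured replicates 1 and 2 or 48 h replicates 2 and 3 was left out. Without 48 h replicate 1, 14 were lower (median -2.58). The amount left differed between 48 h libraries. Kap, an androgen-responsive protein of S3, was at 16052, 11094 and 9184 CPM uninjured and 5263, 1232 and 1427 CPM at 48 h (log2 fold change -2.20 ± 0.66, adjusted p = 0.0374), and this call was lost without any of the uninjured libraries and without 48 h replicate 2 or 3. Slc7a13, a cystine carrier of S3, was at 634, 421 and 374 CPM uninjured and 149, 0.431 and 5.53 CPM at 48 h. Although the groups did not overlap, it failed the test (log2 fold change -3.18 ± 1.43, adjusted p = 0.141). Replicate 1 kept far more than the others. Without 48 h replicate 1 its log2 fold change was -7.02 (adjusted p = 0.0021). Napsa, an aspartic protease, decreased more evenly, at 861, 724 and 466 CPM uninjured and 165, 80.9 and 156 CPM at 48 h (log2 fold change -2.35 ± 0.35, adjusted p = 0.00102). Slc3a1, the partner subunit for cystine uptake whose promoter is shown above, was at 657, 563 and 559 CPM uninjured and 267, 194 and 295 CPM at 48 h (log2 fold change -1.23 ± 0.19, adjusted p = 7.24e-04). The whole S3 list summed to 25305, 18284 and 15821 CPM in uninjured and 9566, 3306 and 3877 CPM in 48 h libraries.

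Of 27 brush border and endocytosis genes 10 were lower (37%) and 1 higher (3.7%), against 11.7% and 17.4% of all genes (median -0.42). The endocytic receptors megalin (Lrp2) and cubilin (Cubn), which take up filtered protein, fell together: Lrp2 was at 4659, 3499.9 and 4964 CPM uninjured and 2052, 1054 and 1679.6 CPM at 48 h (log2 fold change -1.46 ± 0.24, adjusted p = 0.00111). Cubn was at 891, 740.4 and 971 CPM uninjured and 477, 298 and 437 CPM at 48 h (log2 fold change -1.10 ± 0.18, adjusted p = 9.62e-04). Both were lowest in 48 h replicate 2. Treh, which encodes the brush border enzyme trehalase, was at 141, 112 and 107 CPM uninjured and 46.2, 27.5 and 32.0 CPM at 48 h (log2 fold change -1.76 ± 0.21, adjusted p = 1.51e-04). The protease meprin alpha (Mep1a) was at 1359.7, 1242 and 929 CPM uninjured and 517, 176 and 280.2 CPM at 48 h (log2 fold change -1.86 ± 0.36, adjusted p = 0.00441). The sodium proton exchanger Slc9a3 was at 146, 134 and 157 CPM uninjured and 84.5, 70.3 and 52.1 CPM at 48 h (log2 fold change -1.08 ± 0.19, adjusted p = 0.00197). The member that rose was Cdhr2, a cadherin of brush border microvilli (log2 fold change 0.72 ± 0.22, adjusted p = 0.0327). Named after its values were seen, it lost the call without uninjured replicate 1 or 2 and without any of the 48 h libraries.

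Nuclear factors of proximal tubule identity fell in part. Of 19 tested, 8 were lower and none higher (median -0.62). Hnf4a, a factor needed for proximal tubule maturation, was at 959, 1045 and 1031 CPM uninjured and 727, 618 and 577 CPM at 48 h (log2 fold change -0.66 ± 0.12, adjusted p = 0.00238). All 48 h values were below the uninjured ones, and replicate 3 was lowest. Maf, which encodes a basic leucine zipper factor, was at 564, 687 and 681 CPM uninjured and 370.1, 291 and 231 CPM at 48 h (log2 fold change -1.11 ± 0.19, adjusted p = 0.00164). Mlxipl, the carbohydrate-responsive factor ChREBP, was at 165, 219 and 144 CPM uninjured and 88.1, 62.5 and 66.5 CPM at 48 h (log2 fold change -1.28 ± 0.22, adjusted p = 0.00155).

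The list of amino acid breakdown, which also holds Ass1, Asl and Gatm of arginine and creatine synthesis, was lowered almost as a whole. Of 46 enzymes tested 39 fell and none rose (median -1.20), and the list summed to 15562, 15115 and 16029 CPM in uninjured and 7099.8, 5062 and 4425 CPM in 48 h libraries. Ass1, which makes argininosuccinate for arginine synthesis, was at 4089, 4219.9 and 4414 CPM uninjured and 1188, 425 and 494 CPM at 48 h (log2 fold change -2.59 ± 0.35, adjusted p = 5.25e-04). Hpd, the dioxygenase of tyrosine breakdown, was at 55.2, 35.0 and 24.3 CPM uninjured and 1.46, 3.74 and 0.0461 CPM at 48 h (log2 fold change -4.78 ± 0.86, adjusted p = 0.00429). The betaine enzyme Bhmt was at 19.3, 6.92 and 16.4 CPM uninjured and 0.393, 0.575 and 1.24 CPM at 48 h (log2 fold change -4.19 ± 0.59, adjusted p = 4.49e-04). In each of the 3 all 48 h values lay far below the uninjured ones. The lysine enzyme Aldh7a1 was at 466, 413 and 475 CPM uninjured and 223, 197 and 172 CPM at 48 h (log2 fold change -1.19 ± 0.12, adjusted p = 5.19e-05). Kmo of tryptophan breakdown was at 149, 122 and 135 CPM uninjured and 58.5, 35.4 and 41.3 CPM at 48 h (log2 fold change -1.58 ± 0.17, adjusted p = 7.04e-05). The mutase Mmut, which feeds propionate into the citric acid cycle, was at 254, 230.2 and 274 CPM uninjured and 93.6, 78.2 and 75.1 CPM at 48 h (log2 fold change -1.62 ± 0.13, adjusted p = 1.14e-05).

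Of 15 genes for activating and conjugating fatty and organic acids 6 were lower (40%), 2 higher (13.3%) and 7 not called. Among all genes 11.7% were lower and 17.4% higher. The higher count of the list was 1 without any of the uninjured libraries. Inmt, a methyltransferase, had the steepest decrease among the genes named here, at 981, 586 and 672 CPM uninjured and 18.2, 2.73 and 3.87 CPM at 48 h (log2 fold change -6.44 ± 0.79, adjusted p = 7.86e-04). Acsm2, a medium-chain acyl-CoA synthetase of kidney, was at 6758, 5321 and 6690.4 CPM uninjured and 2492, 688 and 822 CPM at 48 h (log2 fold change -2.23 ± 0.49, adjusted p = 0.00836). Acsl5, a long-chain acyl-CoA synthetase, went the other way, at 25.5, 19.7 and 21.7 CPM uninjured and 78.7, 83.5 and 75.5 CPM at 48 h (log2 fold change 1.83 ± 0.16, adjusted p = 1.34e-05). The other member higher was Acsl4, taken up below. Of 31 peroxisomal genes 12 were lower and none higher (median -0.35), among them the sarcosine and pipecolate oxidase Pipox, at 386, 359 and 356 CPM uninjured and 145, 158 and 171 CPM at 48 h (log2 fold change -1.22 ± 0.12, adjusted p = 4.50e-05). The import receptor Pex5 was at 94.4, 86.2 and 92.4 CPM uninjured and 51.3, 57.6 and 50.2 CPM at 48 h (log2 fold change -0.78 ± 0.10, adjusted p = 2.31e-04).

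Other genes with steep decreases or small p values came from several pathways. Cyp2d9 was at 149, 49.6 and 86.5 CPM uninjured and 2.24, 0.719 and 3.18 CPM at 48 h (log2 fold change -5.37 ± 0.77, adjusted p = 0.00166). Cyp2d12 was at 191, 99.3 and 254 CPM uninjured and 8.70, 2.16 and 2.03 CPM at 48 h (log2 fold change -5.33 ± 0.79, adjusted p = 0.00197). Cyp2d26 was at 188, 176 and 249 CPM uninjured and 27.6, 27.3 and 25.7 CPM at 48 h (log2 fold change -2.93 ± 0.17, adjusted p = 1.21e-06). These cytochrome P450 genes are near copies of each other, so reads may be divided between them with an error that the counts do not show. Cyp2d26 was even across 48 h replicates. F13b, the coagulation factor XIII B chain, had 1 of the smallest p values among decreases, at 155, 123 and 153 CPM uninjured and 33.6, 19.4 and 25.9 CPM at 48 h (log2 fold change -2.44 ± 0.18, adjusted p = 5.73e-06). Dhtkd1, a dehydrogenase of lysine breakdown, was at 63.8, 62.5 and 69.4 CPM uninjured and 18.6, 12.6 and 11.5 CPM at 48 h (log2 fold change -2.19 ± 0.18, adjusted p = 9.99e-06). In both genes replicate 1 was highest at 48 h. Miox, the oxygenase that starts myo-inositol breakdown, was at 2509.6, 2756 and 2526 CPM uninjured and 1099, 222 and 317 CPM at 48 h (log2 fold change -2.25 ± 0.53, adjusted p = 0.0134), again highest in replicate 1. Fmo2, a flavin monooxygenase, was at 448, 491 and 452 CPM uninjured and 172, 192 and 146 CPM at 48 h (log2 fold change -1.45 ± 0.12, adjusted p = 1.29e-05).

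Genes with the largest folds or the largest gains in CPM follow, with the injury markers KIM-1 and NGAL among the first kind. Spp1, which encodes osteopontin, was at 218, 438 and 326 CPM uninjured and 8268, 12251 and 20446 CPM at 48 h (log2 fold change 5.38 ± 0.40, adjusted p = 5.73e-06). Clu, the secreted chaperone clusterin, was at 23.4, 19.9 and 21.8 CPM uninjured and 2091, 1287 and 2489 CPM at 48 h (log2 fold change 6.49 ± 0.30, adjusted p = 3.64e-07). Clu was even among uninjured libraries, and Spp1 was already abundant there. Havcr1 (KIM-1), a receptor for dying cells, was at 0.347, 0.737 and 0 CPM uninjured and 95.6, 132 and 515 CPM at 48 h (log2 fold change 9.52 ± 1.08, adjusted p = 5.37e-04), with replicate 3 highest. Lcn2 (NGAL) was at 0.195, 0.105 and 0.330 CPM uninjured and 72.1, 402 and 249.9 CPM at 48 h (log2 fold change 10.08 ± 0.99, adjusted p = 2.62e-04), with replicate 2 highest. The groups did not overlap in either gene, although with limma voom and sample weights both missed the threshold. Cyp24a1, which inactivates vitamin D, was at 76.5, 20.6 and 45.9 CPM uninjured and 404, 1012 and 341 CPM at 48 h (log2 fold change 3.61 ± 0.71, adjusted p = 0.0072), with replicate 2 highest. Cathepsin D (Ctsd), a lysosomal protease, was at 452, 425 and 460.3 CPM uninjured and 855, 953 and 1094 CPM at 48 h (log2 fold change 1.12 ± 0.19, adjusted p = 0.00125). Cathepsin B (Ctsb) was at 526, 489 and 546 CPM uninjured and 772, 932 and 1091 CPM at 48 h (log2 fold change 0.84 ± 0.14, adjusted p = 0.00139). Both gained much RNA at small folds. Pck1, an enzyme of glucose synthesis that was named after its values were seen, was at 1294, 1035 and 920.1 CPM uninjured and 1185, 7501 and 2981 CPM at 48 h (log2 fold change 1.84 ± 0.58, adjusted p = 0.0431). Its 48 h replicate 1 lay within the uninjured range, and the call was lost without any uninjured library, 48 h replicate 2 or 3 or any d14 library. Sprr2f, a cornified envelope gene of a family of close copies whose promoter is shown above, had no count in uninjured cells and 16.8, 29.5 and 17.7 CPM at 48 h, at least 811-fold higher against a floor of 3 counts over the uninjured group (adjusted p = 4.60e-06).

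The genes with the smallest p values among increases were tight in both groups. Hk1, the hexokinase that traps glucose in most cell types, was at 6.67, 8.35 and 7.41 CPM uninjured and 79.1, 83.4 and 76.1 CPM at 48 h (log2 fold change 3.41 ± 0.13, adjusted p = 2.89e-07). Cd24a, a surface protein of immature and injured epithelium, was at 7.75, 8.78 and 8.73 CPM uninjured and 247, 221 and 283 CPM at 48 h (log2 fold change 4.90 ± 0.21, adjusted p = 3.47e-07). Mecom, a zinc finger factor of distal nephron, was at 2.41, 2.25 and 1.88 CPM uninjured and 27.8, 28 and 23.7 CPM at 48 h (log2 fold change 3.6 ± 0.16, adjusted p = 3.47e-07). Uninjured and 48 h values were far apart in all 3. Mal, a membrane protein of distal tubule, was at 10.9, 12.5 and 11.4 CPM uninjured and 170.3, 204 and 148 CPM at 48 h (log2 fold change 3.90 ± 0.15, adjusted p = 2.89e-07). Kcnk1, a potassium channel of the distal nephron, was at 1.19, 1.16 and 0.736 CPM uninjured and 31.8, 35.4 and 25.9 CPM at 48 h (log2 fold change 4.90 ± 0.22, adjusted p = 3.47e-07). Both were even across replicates of each group. The water channel of collecting duct, Aqp2, was among these as well, at 4.19, 3.93 and 5.84 CPM uninjured and 107, 99.6 and 115 CPM at 48 h (log2 fold change 4.53 ± 0.20, adjusted p = 3.47e-07). Umod, the uromodulin gene of the thick ascending limb, was at 123, 163 and 102 CPM uninjured and 747, 624 and 752 CPM at 48 h (log2 fold change 2.45 ± 0.25, adjusted p = 4.51e-05). Several of these genes are known from distal segments, and markers of these segments rose with them. The 7 thick ascending limb markers summed to 293, 337 and 236 CPM in uninjured and 984, 789 and 929 CPM in 48 h libraries (6 higher). The 7 distal convoluted and connecting tubule markers summed to 194, 256 and 223 and 645, 791 and 545 CPM (4 higher). The 8 principal cell markers summed to 76.1, 59.7 and 81.6 and 384, 322 and 359 CPM (7 higher). The 8 intercalated cell markers summed to 21.7, 22.0 and 32.6 and 91.3, 114 and 134 CPM (6 higher). None was called lower. Egf of the thick ascending limb and Pvalb of the distal convoluted tubule, at 0.702 to 1.32 CPM uninjured and up to 0.337 CPM at 48 h, were lower in every 48 h library without being called. Egf, the epidermal growth factor gene, was at 109, 114 and 80.5 CPM uninjured and 24.3, 23.4 and 16.2 CPM at 48 h (log2 fold change -2.25 ± 0.76, adjusted p = 0.059). Egf was called lower with DESeq2 (adjusted p = 0.013), and also at a minimum count of 50, with the 6 libraries alone and without d14 replicate 1 or 2. The part of cells from these segments in the increases was not tested.

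**Figure D3:**
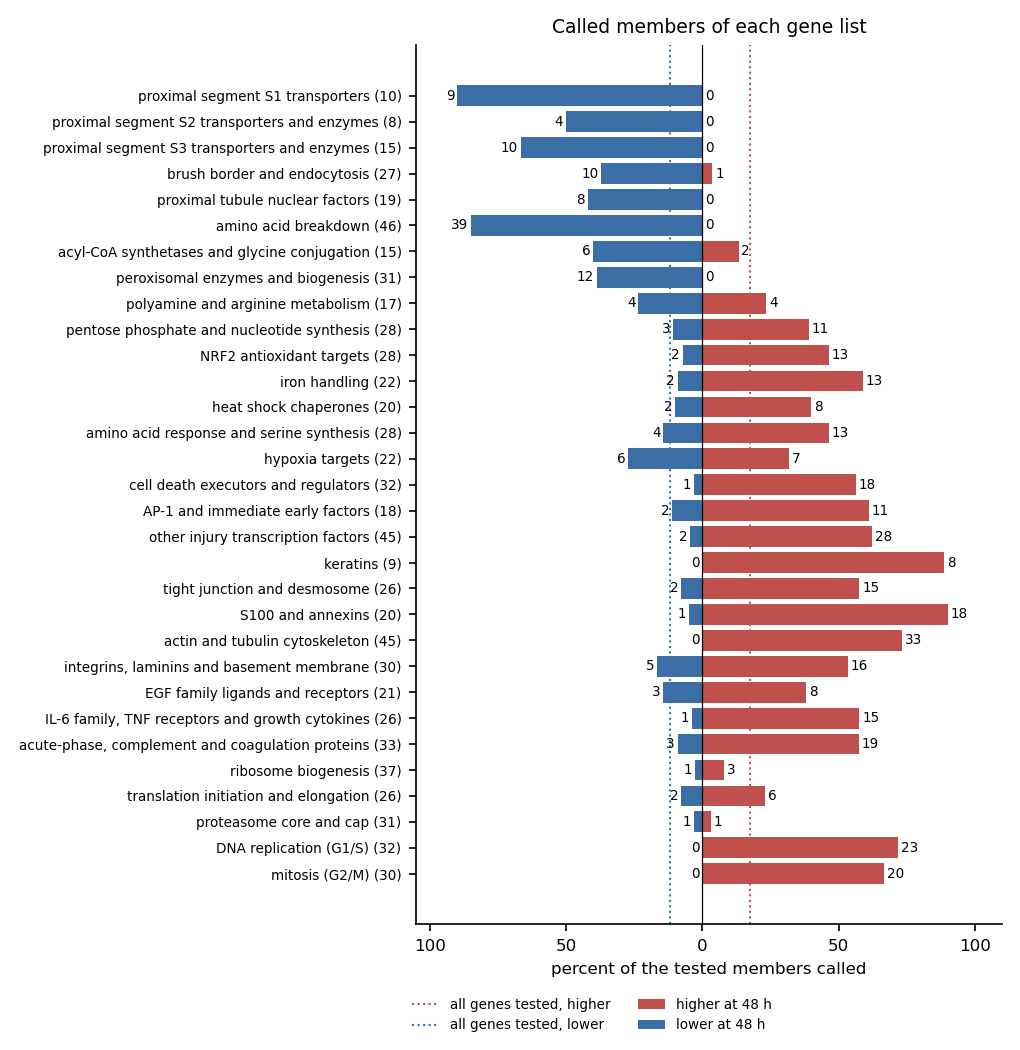
Bars give the percent of tested members of each list called higher (red, to the right) or lower (blue, to the left) at 48 h, with the number of genes at the end of each bar, the number tested in parentheses, and dotted lines at the percent of all genes called higher (17.4) and lower (11.7). Lists of the proximal tubule, amino acid breakdown, acyl-CoA synthetases and peroxisomes lie to the left. Those of epithelial structure, transcription factors, the cell cycle and the pentose phosphate pathway lie to the right. The polyamine and arginine list reaches 23.5% on both sides, and ribosome biogenesis and proteasome lists lie near 0. All lists were chosen with earlier results of these data known.

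Many genes of epithelial architecture rose. Of 9 keratins tested 8 were higher and none lower (median 5.60). Keratins form the intermediate filaments of epithelia. Krt18 was at 0.890, 0.913 and 0.381 CPM uninjured and 31.1, 31.3 and 42.8 CPM at 48 h (log2 fold change 5.60 ± 0.43, adjusted p = 2.33e-05). Krt19 was at 0.0434, 0 and 0.203 CPM uninjured and 8.13, 11.6 and 8.62 CPM at 48 h (log2 fold change 6.67 ± 0.63, adjusted p = 6.51e-05). Both were under 1 CPM in every uninjured library. Krt7 was at 5.02, 6.49 and 5.25 CPM uninjured and 69.9, 74.0 and 79.2 CPM at 48 h (log2 fold change 3.74 ± 0.22, adjusted p = 1.40e-06). Krt20, which is not made by resting kidney epithelium, was at 0.0434, 0.316 and 0 CPM uninjured and 5.61, 20.3 and 14 CPM at 48 h (log2 fold change 6.94 ± 0.91, adjusted p = 4.06e-04). Krt20 was the most uneven of the 4 among 48 h libraries. Of 26 tight junction and desmosome genes 15 were higher (57.7%) and 2 lower (7.69%), against 17.4% and 11.7% of all genes. Cldn4, whose promoter is shown above, was at 0.782, 1.16 and 1.45 CPM uninjured and 40.3, 53.3 and 62.0 CPM at 48 h (log2 fold change 5.53 ± 0.30, adjusted p = 1.29e-06). Cldn7 was at 1.24, 2.00 and 1.02 CPM uninjured and 29.2, 29.5 and 31.9 CPM at 48 h (log2 fold change 4.44 ± 0.25, adjusted p = 9.97e-07). Cldn3 was at 0.413, 0 and 0.203 CPM uninjured and 12.7, 11.8 and 16.2 CPM at 48 h (log2 fold change 5.87 ± 0.53, adjusted p = 4.51e-05). These claudins seal junctions of distal segments. The distal marker sums given above apply to them and to the keratins. The part of distal cells in the keratin and claudin increases was not tested. The 2 lower members, named after their values were seen, were Cldn10 (log2 fold change -0.74 ± 0.19, adjusted p = 0.0144), which forms ion pores, and Cldn12 (log2 fold change -0.92 ± 0.12, adjusted p = 3.19e-04). Cldn10 lost its call without 48 h replicate 3.

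Calcium-binding S100 proteins and annexins, which organise membranes and the cell cortex, rose in 18 of 20 genes tested, with 1 lower (median 2.58). S100a6 was at 0.695, 0.983 and 0.888 CPM uninjured and 50.4, 42.4 and 38.4 CPM at 48 h (log2 fold change 5.69 ± 0.25, adjusted p = 3.47e-07). Anxa2 was at 2.80, 4.28 and 4.26 CPM uninjured and 73.6, 82.4 and 112 CPM at 48 h (log2 fold change 4.57 ± 0.23, adjusted p = 5.92e-07). Anxa3 was at 1.52, 1.72 and 1.24 CPM uninjured and 16.9, 28.7 and 40.0 CPM at 48 h (log2 fold change 4.26 ± 0.34, adjusted p = 1.34e-05). In each gene every 48 h library exceeded every uninjured one. The lower member was Anxa13, an annexin of epithelial apical transport, at 12.5, 16.7 and 14.9 CPM uninjured and 4.15, 0.575 and 3.04 CPM at 48 h (log2 fold change -2.42 ± 0.57, adjusted p = 0.01), named after its values were seen. Of 45 actin and tubulin cytoskeleton genes 33 were higher and none lower (median 0.71), with 1 lower without 48 h replicate 1 or 2. Tmsb10, an actin-sequestering peptide, was at 3.6, 4.91 and 3.33 CPM uninjured and 67.2, 90.5 and 93.7 CPM at 48 h (log2 fold change 4.41 ± 0.20, adjusted p = 3.47e-07). The capping protein Capg was at 0.934, 1.40 and 1.14 CPM uninjured and 33.9, 78.2 and 60.5 CPM at 48 h (log2 fold change 5.64 ± 0.33, adjusted p = 2.15e-06). Every 48 h library exceeded every uninjured one in both. Gsn, a relative of Capg, was at 3.87, 3.65 and 5.13 CPM uninjured and 29.6, 42 and 34.0 CPM at 48 h (log2 fold change 3.05 ± 0.18, adjusted p = 1.24e-06). Filamin A (Flna) was at 13.1, 14.4 and 15.7 CPM uninjured and 141, 105 and 210.4 CPM at 48 h (log2 fold change 3.41 ± 0.25, adjusted p = 6.34e-06). Vim, the intermediate filament of mesenchymal and injured epithelial cells, was at 3.47, 5.34 and 4.54 CPM uninjured and 40.2, 13.4 and 40.2 CPM at 48 h (log2 fold change 2.83 ± 0.48, adjusted p = 0.00239), lowest in replicate 2.

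Cell-matrix contacts changed in both directions. Of 30 integrin, laminin and basement membrane genes 16 were higher and 5 lower (median 0.59). These shares are 53.3% and 16.7%, against 17.4% and 11.7% of all genes. Itgb4, the integrin subunit of hemidesmosomes, was at 0.499, 0.491 and 0.838 CPM uninjured and 14.9, 6.47 and 12.6 CPM at 48 h (log2 fold change 4.23 ± 0.40, adjusted p = 5.20e-05). Itgb3, another integrin subunit, was at 0.456, 0.667 and 0.431 CPM uninjured and 8.53, 9.20 and 6.87 CPM at 48 h (log2 fold change 3.98 ± 0.41, adjusted p = 5.17e-05). Both were under 1 CPM in every uninjured library. Col4a1, a collagen of every basement membrane, was at 143, 157 and 152 CPM uninjured and 332, 243 and 393 CPM at 48 h (log2 fold change 1.10 ± 0.17, adjusted p = 7.20e-04). The 5 lower genes, named after their values were seen, were Itgb8 (log2 fold change -0.83 ± 0.13, adjusted p = 8.66e-04), the laminin chains Lama1 (log2 fold change -0.81 ± 0.17, adjusted p = 0.00529) and Lama3 (log2 fold change -0.85 ± 0.28, adjusted p = 0.0481), and the collagens Col4a3 (log2 fold change -0.69 ± 0.23, adjusted p = 0.0464) and Col4a4 (log2 fold change -0.91 ± 0.23, adjusted p = 0.0133). In uninjured cells Col4a4 was at 344, 322 and 378 CPM and at 48 h at 253, 184 and 116 CPM. The lower count was 3 without any of the uninjured or d14 libraries or without 48 h replicate 2, with Lama3 and Col4a3 the least stable.

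Transcription factors of early response and injury rose in most cases. Of 18 AP-1 and immediate early factors 11 were higher and 2 lower (median 1.91). Jun was at 13.6, 8.21 and 16.1 CPM uninjured and 51.3, 89.5 and 84.7 CPM at 48 h (log2 fold change 2.56 ± 0.27, adjusted p = 1.18e-04). Its partner Fos was at 1.09, 1.51 and 1.75 CPM uninjured and 5.55, 8.62 and 10.2 CPM at 48 h (log2 fold change 2.49 ± 0.42, adjusted p = 0.00141). Fosl2 was at 10.1, 13.3 and 10.5 CPM uninjured and 22.2, 30.0 and 41.4 CPM at 48 h (log2 fold change 1.47 ± 0.24, adjusted p = 0.00117). Replicate 1 was lowest at 48 h in all 3 genes. The small Maf proteins went both ways. Maff, named after its values were seen, was called higher, at 0.803, 0.0702 and 0.0254 CPM uninjured and 2.30, 3.88 and 7.05 CPM at 48 h (adjusted p = 0.0107). Mafk was called lower, at 27.5, 27.2 and 30.2 CPM uninjured and 17.2, 15.1 and 16.7 CPM at 48 h (log2 fold change -0.79 ± 0.13, adjusted p = 9.62e-04). Mafg, also named after its values were seen, was lower too, at 90.7, 104 and 90.6 CPM uninjured and 65.0, 60.5 and 47.4 CPM at 48 h (log2 fold change -0.72 ± 0.13, adjusted p = 0.00212). Of 45 other injury factors 28 were higher and 2 lower (median 1.60). Ehf, an ETS factor of epithelia, was at 1.98, 1.61 and 1.75 CPM uninjured and 19.2, 23.1 and 32.1 CPM at 48 h (log2 fold change 3.80 ± 0.22, adjusted p = 1.24e-06). Sox4, a relative of Sox9 in nephron development, was at 2.69, 5.02 and 3.33 CPM uninjured and 30.8, 40.1 and 48.8 CPM at 48 h (log2 fold change 3.46 ± 0.25, adjusted p = 5.28e-06). Replicate 3 was highest at 48 h in both. Klf4 was at 0.934, 1.30 and 1.50 CPM uninjured and 10.6, 13.9 and 16.2 CPM at 48 h (log2 fold change 3.45 ± 0.27, adjusted p = 6.81e-06). Klf6, an early injury factor, started from a higher level, at 16.6, 22.7 and 20.5 CPM uninjured and 48.8, 58.1 and 78.0 CPM at 48 h (log2 fold change 1.63 ± 0.19, adjusted p = 1.38e-04). The lower members were Klf9 (log2 fold change -0.83 ± 0.17, adjusted p = 0.00449) and Klf15 (log2 fold change -1.43 ± 0.19, adjusted p = 3.19e-04), both induced by glucocorticoids in many tissues and named after their values were seen. Klf15 was at 90.8, 92.0 and 95.6 CPM uninjured and 35.6, 45.6 and 23.3 CPM at 48 h.

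Oxidant defence was raised in part. Of 28 genes listed for NRF2, a transcription factor of the response to electrophiles and oxidants, 13 were higher and 2 lower (median 0.61). These shares are 46.4% and 7.14%, against 17.4% and 11.7% of all genes. Gsta1, a glutathione transferase with close copies whose reads it may share, was at 0.369, 0.737 and 0.660 CPM uninjured and 28.4, 35.8 and 19.0 CPM at 48 h (log2 fold change 5.57 ± 0.41, adjusted p = 4.89e-06). Ephx1, an epoxide hydrolase, was at 4.39, 2.42 and 4.29 CPM uninjured and 41.6, 64.5 and 31.9 CPM at 48 h (log2 fold change 3.61 ± 0.29, adjusted p = 1.66e-05). Cbr3, a carbonyl reductase, was at 0.217, 0.140 and 0.178 CPM uninjured and 3.93, 61.5 and 9.63 CPM at 48 h (log2 fold change 7.03 ± 1.30, adjusted p = 0.0054). In all 3 genes replicate 2 was highest, most of all in Cbr3, whose log2 fold change without that library was 5.20 (adjusted p = 3.98e-04). Abcc1, which exports glutathione conjugates, was at 2.24, 0.948 and 2.03 CPM uninjured and 12.7, 6.90 and 13.7 CPM at 48 h (log2 fold change 2.68 ± 0.32, adjusted p = 1.70e-04). The lower members, Me1 (log2 fold change -0.70 ± 0.13, adjusted p = 0.00294) and Sqstm1 (log2 fold change -0.63 ± 0.11, adjusted p = 0.00168), were named after their values were seen, and 4 were lower without 48 h replicate 2. Of 28 genes of the pentose phosphate pathway and nucleotide synthesis 11 were higher (39.3%) and 3 lower (10.7%), against 17.4% and 11.7% of all genes. The higher count was 7 without uninjured replicate 1 or 2, and the lower count was 1 or 0 without uninjured replicate 1 or 3. The oxidative branch enzyme G6pdx was at 20.4, 21.1 and 19.5 CPM uninjured and 36.4, 46.7 and 42.3 CPM at 48 h (log2 fold change 1.04 ± 0.15, adjusted p = 5.04e-04). Taldo1 of the other branch was at 162, 138 and 149.7 CPM uninjured and 254, 381 and 308 CPM at 48 h (log2 fold change 1.07 ± 0.15, adjusted p = 4.33e-04). By contrast Gpx3, the secreted glutathione peroxidase made by proximal tubule, was at 29376, 32612 and 33902 CPM uninjured and 18926, 24594 and 17972 CPM at 48 h (log2 fold change -0.64 ± 0.21, adjusted p = 0.0396), a call that was lost without any of the 6 libraries compared except 48 h replicate 2.

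Iron handling genes were higher in 13 of 22 tested and lower in 2 (median 1.02). Fth1, the ferritin heavy chain that stores iron, was at 4457, 4308 and 3976 CPM uninjured and 8711, 13630.5 and 8843 CPM at 48 h (log2 fold change 1.29 ± 0.20, adjusted p = 7.78e-04), the largest gain in CPM after Spp1 among called genes outside the mitochondrial genome. Tfrc, the transferrin receptor, was at 61.3, 42.5 and 59.0 CPM uninjured and 110.3, 134 and 139.5 CPM at 48 h (log2 fold change 1.24 ± 0.16, adjusted p = 2.80e-04). Fth1 was highest in 48 h replicate 2, Tfrc in replicate 3. Hmox1, which splits heme, was at 20.0, 20.3 and 17.6 CPM uninjured and 37.9, 63.5 and 84.4 CPM at 48 h (log2 fold change 1.68 ± 0.25, adjusted p = 7.45e-04). The copper-bearing ferroxidase Cp was at 2.41, 1.51 and 4.11 CPM uninjured and 39.5, 71.6 and 78.8 CPM at 48 h (log2 fold change 4.54 ± 0.41, adjusted p = 6.89e-05). In each of these genes all 48 h libraries exceeded all uninjured ones. Hp, the haptoglobin gene, was at 0.195, 0.667 and 0.584 CPM uninjured and 6.56, 14.4 and 13.6 CPM at 48 h (log2 fold change 4.59 ± 0.60, adjusted p = 2.69e-04). The lower members were the iron carrier Slc11a2 (log2 fold change -0.66 ± 0.13, adjusted p = 0.00309) and Ireb2, an iron sensor (log2 fold change -0.44 ± 0.13, adjusted p = 0.0269), both named after their values were seen, and Ireb2 lost its call when uninjured replicate 1 or 3, or 48 h replicate 2 or 3, was omitted.

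Stress response genes were called higher more often than the 17.4% of all genes, a difference that was not tested. Lower calls came near the 11.7% of all genes. Of 20 heat shock chaperones 8 were higher (40%) and 2 lower (10%), with a median of 0.21. The lower count was 1 when any library other than 48 h replicate 1 was left out. Among those higher, the inducible Hspa1b was at 2.19, 3.58 and 4.16 CPM uninjured and 36.0, 80.5 and 41.4 CPM at 48 h (log2 fold change 3.98 ± 0.37, adjusted p = 7.17e-05). The small heat shock protein Hspb1 was at 0.347, 0.632 and 1.75 CPM uninjured and 19.0, 21 and 24.1 CPM at 48 h (log2 fold change 4.55 ± 0.45, adjusted p = 9.03e-05). Hspa1a and Hspa1b are near-identical copies, so their reads may be shared. Of 28 genes of the amino acid response and serine synthesis 13 were higher (46.4%) and 4 lower (14.3%), with a median of 1.08. Amino acid importers were among those higher, with Slc1a5 at 2.69, 3.44 and 2.92 CPM uninjured and 22.6, 28.9 and 38.4 CPM at 48 h (log2 fold change 3.32 ± 0.20, adjusted p = 1.28e-06). Slc38a2 was at 14.5, 15.7 and 13.1 CPM uninjured and 58.0, 54.8 and 79.3 CPM at 48 h (log2 fold change 2.15 ± 0.17, adjusted p = 6.34e-06). Replicate 3 was highest at 48 h in both. Slc7a1 was at 0.934, 1.09 and 0.939 CPM uninjured and 11.8, 7.76 and 13.3 CPM at 48 h (log2 fold change 3.49 ± 0.29, adjusted p = 1.26e-05). Asns, which makes asparagine, was at 1.22, 1.12 and 0.685 CPM uninjured and 12.2, 8.48 and 4.98 CPM at 48 h (log2 fold change 3.08 ± 0.38, adjusted p = 1.73e-04).

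Hypoxia targets split. Of 22 tested 7 were higher and 6 lower (median 0.28), with 4 higher without uninjured replicate 2. The shares with all libraries are 31.8% and 27.3%, against 17.4% and 11.7% of all genes. The higher ones included the glycolytic switch Pfkfb3, at 1.80, 2.07 and 2.82 CPM uninjured and 10.0, 10.2 and 13.9 CPM at 48 h (log2 fold change 2.35 ± 0.24, adjusted p = 4.83e-05). Pdk1, which limits the oxidation of pyruvate in mitochondria, was at 8.25, 7.69 and 9.80 CPM uninjured and 20.6, 36.1 and 25.4 CPM at 48 h (log2 fold change 1.65 ± 0.19, adjusted p = 1.16e-04). The lower ones included the angiogenic factor Vegfa, at 155, 176 and 152 CPM uninjured and 67.3, 73.0 and 64.3 CPM at 48 h (log2 fold change -1.24 ± 0.15, adjusted p = 1.38e-04). Ndrg1, an abundant stress protein of proximal tubule, was at 4311, 4392 and 4408 CPM uninjured and 2119.9, 2546 and 1662 CPM at 48 h (log2 fold change -1.05 ± 0.17, adjusted p = 0.00121).

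Of 32 genes of cell death 18 were higher and 1 lower (median 0.95), and they came from both sides of the process. Ripk3, the kinase of necroptosis, was at 0.0217, 0 and 0.0761 CPM uninjured and 3.37, 1.01 and 3.32 CPM at 48 h (log2 fold change 6.07 ± 0.90, adjusted p = 6.13e-04), with 4 counts in all in uninjured cells. Bak1, a pore-forming killer, was at 7.73, 9.09 and 7.44 CPM uninjured and 21.5, 25.9 and 31.5 CPM at 48 h (log2 fold change 1.71 ± 0.18, adjusted p = 5.51e-05). Pycard, the adaptor of inflammasomes, was at 2.93, 2.56 and 2.49 CPM uninjured and 8.70, 18.0 and 12.5 CPM at 48 h (log2 fold change 2.26 ± 0.24, adjusted p = 6.89e-05). Mcl1, which protects from apoptosis, was at 75.8, 80.3 and 75.8 CPM uninjured and 117, 143 and 161 CPM at 48 h (log2 fold change 0.86 ± 0.14, adjusted p = 0.00106). Bid, a trigger of Bak1, was the lower member (log2 fold change -0.72 ± 0.13, adjusted p = 0.00242) and was named after its values were seen.

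Of 17 arginine and polyamine genes 4 were higher and 4 lower (23.5% each, against 17.4% and 11.7% of all genes). Arg2, the mitochondrial arginase, was at 0.0434, 0.0702 and 0 CPM uninjured and 4.10, 18.8 and 7.28 CPM at 48 h (log2 fold change 7.95 ± 0.83, adjusted p = 7.16e-05), with 4 counts in all in uninjured cells. Smox, which oxidises spermine, was at 3.93, 4.60 and 4.16 CPM uninjured and 8.47, 9.92 and 14.9 CPM at 48 h (log2 fold change 1.40 ± 0.26, adjusted p = 0.00215). Sms, which encodes spermine synthase, was at 62.2, 57.6 and 50.3 CPM uninjured and 31.7, 29.2 and 30.8 CPM at 48 h (log2 fold change -0.89 ± 0.13, adjusted p = 4.63e-04). Gamt, the last enzyme of creatine synthesis, was at 18.8, 19.6 and 15.4 CPM uninjured and 6.17, 8.62 and 5.99 CPM at 48 h (log2 fold change -1.39 ± 0.33, adjusted p = 0.00949). The lower count was 2 without any of the uninjured libraries, 48 h replicate 3 or d14 replicate 1, and the higher count was 2 without uninjured replicate 2 or 3.

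Signalling genes showed opposite changes of receptors in 1 family. Of 21 EGF family genes 8 were higher (38.1%) and 3 lower (14.3%), against 17.4% and 11.7% of all genes. The ligand Tgfa was at 0.239, 0.632 and 0.406 CPM uninjured and 2.47, 6.04 and 3.23 CPM at 48 h (log2 fold change 3.18 ± 0.47, adjusted p = 5.57e-04). The receptor Erbb4 was at 1.65, 0.386 and 0.533 CPM uninjured and 11.3, 7.47 and 11 CPM at 48 h (log2 fold change 3.48 ± 0.42, adjusted p = 3.02e-04). Erbb3 was at 179, 148 and 174 CPM uninjured and 78.0, 65.0 and 66.4 CPM at 48 h (log2 fold change -1.26 ± 0.14, adjusted p = 8.28e-05). The groups overlapped in neither receptor. The other lower members were Egfr, the receptor for Tgfa, at 90.7, 79.1 and 119 CPM uninjured and 45.8, 44.3 and 60.6 CPM at 48 h (log2 fold change -0.93 ± 0.17, adjusted p = 0.00191), and Erbb2 (log2 fold change -0.62 ± 0.20, adjusted p = 0.0364), both named after their values were seen. The call of Erbb2 was lost when replicate 1 or 3 of the uninjured group was left out, and likewise for replicate 2 or 3 at 48 h and replicate 2 at d14. Dusp5, a phosphatase that limits signalling downstream, was at 0.434, 0.667 and 0.228 CPM uninjured and 4.32, 3.88 and 5.02 CPM at 48 h (log2 fold change 3.32 ± 0.51, adjusted p = 7.15e-04).

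Of 26 genes of the IL-6 family, TNF receptors and growth cytokines 15 were higher and 1 lower (median 1.83), with 2 lower without TMM or with limma voom, 3 without 48 h replicate 1 and none without 48 h replicate 2. Socs3, the inhibitor induced by IL-6 signals, was at 0.890, 1.44 and 1.12 CPM uninjured and 14.8, 15.2 and 32.3 CPM at 48 h (log2 fold change 4.21 ± 0.35, adjusted p = 1.36e-05). The ligand Clcf1 was at 1.22, 1.76 and 0.660 CPM uninjured and 6.06, 10.9 and 15.6 CPM at 48 h (log2 fold change 3.18 ± 0.43, adjusted p = 3.61e-04). The groups did not overlap in either gene. The TNF receptor Tnfrsf1a was at 26.8, 26.3 and 26.5 CPM uninjured and 62.6, 69.4 and 84.1 CPM at 48 h (log2 fold change 1.44 ± 0.12, adjusted p = 1.35e-05). The TWEAK receptor Tnfrsf12a was at 7.62, 6.21 and 5.86 CPM uninjured and 26.2, 67.4 and 68.7 CPM at 48 h (log2 fold change 3.03 ± 0.36, adjusted p = 2.59e-04). Il34, a growth factor of macrophages, was at 4.28, 2.35 and 2.41 CPM uninjured and 18.7, 34.3 and 41.7 CPM at 48 h (log2 fold change 3.37 ± 0.35, adjusted p = 9.55e-05). Replicate 3 was highest at 48 h in each of these 5 genes. The list's lower member, Lifr, a receptor of this family named after its values were seen, was at 73.9, 68.9 and 74.6 CPM uninjured and 64.7, 36.6 and 46.9 CPM at 48 h (log2 fold change -0.54 ± 0.17, adjusted p = 0.0336), and the call was lost without any of the uninjured libraries, 48 h replicate 2 or 3 or d14 replicate 3. Another 9 members, Il6 and Osm among them, had too few counts to be tested.

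Of 33 acute-phase, complement and coagulation genes 19 were higher and 3 lower (median 1.70), and here replicates were uneven. C3, the central complement protein, was at 15.7, 14.7 and 21.2 CPM uninjured and 158, 269.8 and 812 CPM at 48 h (log2 fold change 4.59 ± 0.65, adjusted p = 0.00153). Serpina10, an inhibitor of coagulation, was at 0.0434, 0 and 0.254 CPM uninjured and 7.24, 2.16 and 46.9 CPM at 48 h (log2 fold change 7.47 ± 1.40, adjusted p = 0.00598). Replicate 3 was highest in both. Fibrinogen chains, named after their values were seen, were also highest there, with Fgb at 1.91, 0.316 and 2.08 CPM uninjured and 7.41, 29.8 and 121 CPM at 48 h (log2 fold change 5.16 ± 1.11, adjusted p = 0.0111). Fgg was at 10.1, 7.37 and 10.4 CPM uninjured and 35.3, 116 and 280.3 CPM at 48 h (log2 fold change 3.95 ± 0.71, adjusted p = 0.00499). Cd59a, which blocks the complement pore, was more even, at 5.54, 5.86 and 3.88 CPM uninjured and 17.8, 26.0 and 18.6 CPM at 48 h (log2 fold change 2.02 ± 0.20, adjusted p = 4.27e-05). The lower members were C2 (log2 fold change -1.04 ± 0.14, adjusted p = 2.96e-04), Cfb (log2 fold change -0.80 ± 0.19, adjusted p = 0.00832) and the urokinase Plau (log2 fold change -1.36 ± 0.39, adjusted p = 0.0301), also named after their values were seen, of which Plau lost its call without uninjured replicate 1 or 2 or 48 h replicate 1. Cfb, a factor of the alternative complement pathway, was at 636, 519 and 611 CPM uninjured and 339.9, 247 and 424 CPM at 48 h.

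Markers of white blood cells moved with these groups. The 6 neutrophil markers tested were all higher, and the list summed to 2.63, 7.72 and 5.33 CPM in uninjured and 114, 205 and 337 CPM in 48 h libraries. Mmp9, a gelatinase stored by neutrophils, was at 0.282, 0.351 and 0.305 CPM uninjured and 29.7, 31.5 and 60.5 CPM at 48 h (log2 fold change 7.02 ± 0.37, adjusted p = 8.03e-07). Cxcr2, a chemokine receptor, was at 0.174, 0.175 and 0.203 CPM uninjured and 11.9, 12.5 and 29.7 CPM at 48 h (log2 fold change 6.59 ± 0.47, adjusted p = 3.67e-06). Of 11 macrophage and monocyte markers 6 were higher and none lower, and the list summed to 30.5, 35.7 and 28.3 and 183, 124 and 396 CPM. Chil3, a chitinase-like protein of activated macrophages and neutrophils, was at 0.109, 0.246 and 0.127 CPM uninjured and 15.2, 52.9 and 52.1 CPM at 48 h (log2 fold change 8.0 ± 0.97, adjusted p = 5.58e-04). With DESeq2 10 macrophage markers were higher. Replicate 3 held the most of both lists and was also highest in C3 and Il34. The part of white blood cells in the increases of iron, cytokine, S100, cytoskeletal and cell death genes was not tested. The 2 of 11 T, B and NK cell markers with enough counts to be tested, the 7 fibroblast and pericyte markers tested (summing to 3.54, 4.53 and 7.87 and 6.90, 2.16 and 5.12 CPM) and the 5 red blood cell markers (summing to 65.1, 164 and 56.7 and 190.1, 178 and 106 CPM) had no member called by edgeR. At an unadjusted p under 0.05 there were 0, 1 and 0, and DESeq2 called 0, 1 and 0. Without 48 h replicate 2, edgeR called 0, 1 and 0. The fibroblast markers Lum and Postn were too low to be tested.

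Cell cycle genes rose, with a split between replicates. Of 32 DNA replication genes 23 were higher and none lower (median 1.48), and of 30 mitosis genes 20 were higher and none lower (median 3.61). The mitosis count was 9 to 12 without any of the uninjured libraries, 10 without 48 h replicate 1, 30 without 48 h replicate 2 and 28 with DESeq2. The replication count was 27 without 48 h replicate 2. The replication list summed to 171, 174 and 174 CPM in uninjured and 481, 258 and 646 CPM in 48 h libraries, and the mitosis list to 28.9, 27.4 and 17.4 and 539, 34.8 and 143 CPM. Replicate 2 thus lay close to uninjured cells in mitosis genes and replicate 1 far above. Uhrf1, which copies DNA methylation during replication, was at 1.15, 0.843 and 1.04 CPM uninjured and 16.6, 5.89 and 39.6 CPM at 48 h (log2 fold change 4.36 ± 0.61, adjusted p = 7.90e-04). The helicase subunit Mcm3 was at 1.61, 1.79 and 1.09 CPM uninjured and 10.7, 4.89 and 24.9 CPM at 48 h (log2 fold change 3.20 ± 0.54, adjusted p = 0.00168). The nucleotide reductase subunit Rrm2 was at 2.54, 1.97 and 2.13 CPM uninjured and 46.3, 7.04 and 29.3 CPM at 48 h (log2 fold change 3.65 ± 0.58, adjusted p = 0.00162). These 3 genes were above all uninjured values in each of the 48 h libraries. Cdk1, the kinase that starts mitosis, was at 0.347, 0.632 and 0.406 CPM uninjured and 17.6, 2.01 and 5.21 CPM at 48 h (log2 fold change 4.19 ± 0.74, adjusted p = 0.00184). The spindle checkpoint gene Bub1b was at 0.673, 0.175 and 0.254 CPM uninjured and 9.99, 3.59 and 2.49 CPM at 48 h (log2 fold change 3.82 ± 0.67, adjusted p = 0.00175). Top2a, which untangles chromosomes, was at 1.82, 2.00 and 0.787 CPM uninjured and 40.1, 0.431 and 15.3 CPM at 48 h. Here 48 h replicate 2 lay below every uninjured library, and the call (adjusted p = 0.0454) was lost without any uninjured library, 48 h replicate 1 or 3 or any d14 library. Mki67, the proliferation marker, had the same order, at 3.67, 3.97 and 1.65 CPM uninjured and 98.1, 2.30 and 25.9 CPM at 48 h (adjusted p = 0.0313), and lost its call without any uninjured library, 48 h replicate 1 or 3 or d14 replicate 1 or 2. The cyclin Ccna2 showed the same order, at 0.673, 1.44 and 0.584 CPM uninjured and 26.9, 0 and 8.62 CPM at 48 h (log2 fold change 3.77 ± 1.23, adjusted p = 0.0516), and was not called. Endothelial markers were also highest in 48 h replicate 1, where the 9 summed to 733 CPM against 87.5 and 145 CPM in the other 48 h libraries and 79.1, 106 and 156 CPM in uninjured libraries, with none of the 9 called by edgeR, 2 at an unadjusted p under 0.05 and 2 called with DESeq2, and 1 called without 48 h replicate 2. Plvap, a protein of endothelial fenestrae, was at 14.2, 17.3 and 20.6 CPM uninjured and 196, 27.0 and 38.6 CPM at 48 h (log2 fold change 2.34 ± 0.84, adjusted p = 0.0734). Podocyte markers were highest there too, the 6 summing to 147, 32.9 and 70.1 CPM at 48 h against 36.5, 47.5 and 58.4 CPM in uninjured libraries. Of these, Synpo was called higher (log2 fold change 1.84 ± 0.36, adjusted p = 0.00303), and 1 marker was called lower without 48 h replicate 3. Of 4 parietal epithelium markers 3 were higher, summing to 60.8, 45.2 and 61.7 CPM in uninjured and 66.3, 78.3 and 123 CPM in 48 h libraries. The part of these cells in the mitosis result was not tested.

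Ribosome biogenesis and proteasome genes were called less often than the 17.4% higher and 11.7% lower of all genes, a difference that was not tested. Translation factors were called higher in 23.1% and lower in 7.69%. Of 37 ribosome biogenesis genes 3 were higher and 1 lower (median 0.05), of 26 translation factors 6 and 2 (median 0.13, with 5 lower by DESeq2 and 3 higher when replicate 3 of either group was left out) and of 31 proteasome subunits 1 and 1 (median 0.01). The lists summed to 1239.8, 1229 and 1238 CPM in uninjured and 1236, 1227 and 1383 CPM in 48 h libraries for ribosome biogenesis and to 2655, 2477 and 2458 and 2399.8, 2763 and 2508 CPM for the proteasome. Called genes included Eif4ebp1, the brake on cap-dependent translation, at 5.19, 7.48 and 3.98 CPM uninjured and 18.0, 25.2 and 17.4 CPM at 48 h (log2 fold change 1.86 ± 0.25, adjusted p = 3.54e-04). Utp20, a factor of small ribosomal subunit assembly, was at 39.4, 46.5 and 37.6 CPM uninjured and 19.1, 16.4 and 22.3 CPM at 48 h (log2 fold change -1.08 ± 0.14, adjusted p = 2.53e-04). The 3 ribosome biogenesis genes higher were 1 without TMM, without any of the uninjured libraries or without 48 h replicate 3, where 3 were lower and the median was -0.055. The proteasome calls were both lost without uninjured replicate 1 or 3 or 48 h replicate 2.

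**Figure D4:**
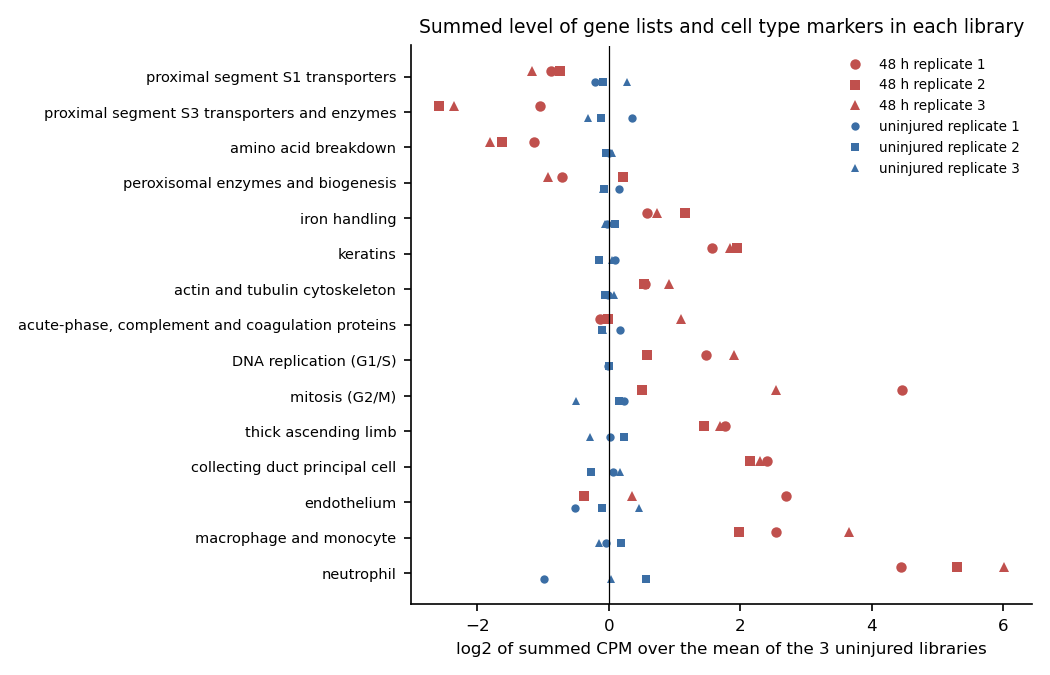
Summed CPM of 15 gene lists and marker lists in each library, as log2 over the mean of the 3 uninjured libraries, with circles, squares and triangles for replicates 1, 2 and 3. The 48 h libraries (red) lie close together for keratins and for thick ascending limb and principal cell markers. They lie far apart for mitosis, DNA replication, S3, peroxisomal, acute-phase, endothelial, macrophage and neutrophil genes.

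The 48 h replicates differed among themselves in a few further genes. Replicate 2 stood out in peroxisomal genes: the peroxisomal list summed to 4457, 8441 and 3815 CPM at 48 h against 8073, 6930.2 and 6831 CPM in uninjured libraries. Ehhadh, a peroxisomal enzyme of fatty acid oxidation that was named after its values were seen, was at 256, 1147 and 162 CPM at 48 h against 633, 444 and 369 CPM in uninjured libraries. Replicate 2 was thus above the uninjured range and replicates 1 and 3 were below it. Without replicate 2 the log2 fold change was -1.21 (adjusted p = 0.00738). Acsl4, an acyl-CoA synthetase for polyunsaturated fatty acids, also named after its values were seen, was at 30.9, 30.7 and 38.8 CPM uninjured and 53.6, 267 and 95.3 CPM at 48 h (log2 fold change 2.04 ± 0.53, adjusted p = 0.023), a call lost without any uninjured library. In the sums of the S2 and S3 lists, replicate 1 kept the most RNA. Besides Kap and Slc7a13, Cyp2e1 and Slco1a1, both named after their values were seen, were at 1359, 157 and 159 and at 111, 6.32 and 8.67 CPM at 48 h against 2334, 1324 and 1617 and 276, 171 and 185 CPM. Not every member had this order, with Slc22a8 highest in 48 h replicate 2 and Slc3a1 in 48 h replicate 3. One uninjured library also departed: Bcl6, a repressor whose level in many tissues depends on hormones, was at 6.28, 126 and 88.0 CPM in uninjured and 8.13, 15.4 and 13 CPM in 48 h libraries, and without uninjured replicate 1 its log2 fold change was -3.16 (adjusted p = 0.00193) in place of -2.62 ± 0.96 (adjusted p = 0.08). Vcam1, an adhesion molecule of injured tubule and endothelium, was at 1.30, 2.46 and 1.42 CPM uninjured and 7.63, 0.719 and 36.3 CPM at 48 h (log2 fold change 3.23 ± 1.05, adjusted p = 0.0549). Akr1c14, a steroid dehydrogenase, was at 192, 131 and 90.4 CPM uninjured and 55.1, 2.87 and 11.3 CPM at 48 h (log2 fold change -2.53 ± 1.08, adjusted p = 0.124). Large fitted folds in these genes were not called, and the 48 h libraries spread widely in both.

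Cells labelled at day 14 came from mice of the same genotype and were compared with 48 h cells directly, in a contrast in which 33.1% of all genes were called in either direction. Some genes were higher at 48 h than at d14. Gsta1 was at 0.422, 0.396 and 0.898 CPM at d14 (48 h over d14, log2 fold change 5.54 ± 0.41, adjusted p = 1.43e-05), Cyp24a1 at 43.2, 20.7 and 13.1 CPM (4.51 ± 0.74, adjusted p = 0.00302), Hp at 0.176, 0.594 and 0.490 CPM (4.76 ± 0.61, adjusted p = 2.45e-04) and Fth1 at 1496, 1679 and 1630.4 CPM (2.70 ± 0.21, adjusted p = 1.81e-05). The d14 values of Fth1 lay below the uninjured range, and those of the other 3 genes overlapped it. Other genes that were up at 48 h were higher still at d14, among them Clu at 5199, 3383 and 4171 CPM (-1.12 ± 0.24, adjusted p = 0.00499), Hk1 at 247, 228 and 277 CPM (-1.66 ± 0.12, adjusted p = 1.30e-05) and Krt7 at 357, 194 and 233 CPM (-1.81 ± 0.20, adjusted p = 1.18e-04). Hnf4a and Slc6a19 were lower at d14 than at 48 h, with Hnf4a at 270.2, 253 and 262 CPM (1.29 ± 0.12, adjusted p = 5.31e-05) and Slc6a19 at 55.1, 76.6 and 66.6 CPM (1.67 ± 0.21, adjusted p = 2.36e-04). For Sox9 (38.8, 32.1 and 28.8 CPM, -1.15 ± 0.48, adjusted p = 0.0996), Havcr1 (121, 155 and 122 CPM, 0.90 ± 0.69, adjusted p = 0.359) and S100a6 (64.9, 43.5 and 39.7 CPM, -0.17 ± 0.19, adjusted p = 0.517) the difference did not pass the threshold, which does not show that the groups were alike. Time after injury and the timing of tamoxifen differ together in this contrast and cannot be told apart. Segment marker sums differed as well. Thick ascending limb markers summed to 3069, 5435 and 5651 CPM at d14 against 984, 789 and 929 CPM at 48 h. Distal convoluted and connecting tubule markers summed to 3311, 4329 and 4564 against 645, 791 and 545 CPM. Proximal tubule markers summed to 4534, 5825 and 5725 against 16603, 10624 and 11006 CPM. The part of tubule segments in the differences between 48 h and d14 was not tested.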

How the data were processed

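tdTomato-positive kidney cells were profiled by sequencing of polyadenylated RNA. The authors deposited a table of expected counts per gene and library (RSEM), already as whole numbers and not scaled for depth. Per the submitters' processing notes, the tools were RSEM 1.2.28, STAR 2.6.1, bcl2fastq 2.20, R 3.6.3 and DESeq2 1.26.0, listed without roles beside a mouse and a human build. All gene identifiers are mouse, so mm10 was used. No source used here gives the annotation release or the counting strand. Reads matching more than 1 gene are split by RSEM, which leaves near-identical genes uncertain. GENCODE M21 holds 54487 of the 55385 gene identifiers in the same version, from which coordinates were taken. Another 92 spike-in sequences had 0 counts and were not used.

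The test was made in edgeR 4.0.16 (R 4.3.3): filterByExpr (minimum count 10, minimum total 15), TMM, and the quasi-likelihood F-test with robust dispersion and a mean per group over all 9 libraries, with Benjamini-Hochberg adjustment over 15519 genes. Standard errors are the log2 fold change over the square root of F. A gene without counts allows 3 counts, or 0.0651 to 0.431 CPM in a library and 0.0263 CPM over the uninjured group, covering counting error only. On simulated data for this comparison (15519 genes, 200 changed), 75 of 100 genes changed 4-fold and 43 of 100 changed 2-fold were recovered, with 5 false calls. The simulation gave all groups the same spread per gene, whereas the biological coefficient of variation was 0.223 in uninjured and 0.398 in 48 h libraries. It also changed 200 genes, against 4518 called in the data. It therefore cannot show how the test behaves with the more variable 48 h group.

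Gene lists with their members, markers and motifs were chosen with earlier results of these data known. The libraries were chosen by group label. Genes named are 12 chosen by name, extremes of fold, p, CPM gain or loss and 48 h spread among called genes of at least 10 CPM, the largest uncalled folds, up to 5 called genes per list with the smallest p, and markers. Others are marked as named after their values were seen, and a few genes that the rule names are not reported here. Alternatives were no TMM, DESeq2 1.42.0, limma voom 3.58.1 with sample weights, other filters, the 6 libraries alone, a replicate block and each library left out.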

Additional observations from a re-analysis of the deposited data

How the results depend on the processing

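The count of genes higher was 2483 without TMM, 3234 with DESeq2 (12 genes without an adjusted p), 2724 with limma voom and sample weights, 2545 without a filter, 2473 at a minimum count of 50 and 2118 with the 6 libraries alone, against 2700. The count of genes lower was 1623, 2164, 1865, 1696, 1806 and 1480 in the same order, against 1818. Leaving out single libraries gave 1994 to 2837 higher and 1147 to 1995 lower. Replicate numbers did not pair the libraries (correlations of deviations -0.0267, -0.00725 and -0.0280 between same-numbered libraries), and a replicate block gave 2289 higher and 1529 lower. Of the 1818 genes lower, 1137 were also called without uninjured replicate 1. Ehhadh, uncalled at 0.11, reached -0.57 with limma voom, -0.28 with the replicate block and -1.21 to 0.53 over the libraries left out. The fewest counts, 8036054 in 48 h replicate 2, limit what can be said of genes under about 0.431 CPM there.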
